A study of Homo sapiens with 8 samples.

Results

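Skipped-exon events in genes named as long noncoding or antisense RNAs were examined for their exon inclusion, read depth and response to emetine. A gene entered the set when its symbol began with LINC and a digit, the form given to intergenic noncoding genes, or ended in -AS, -AS1, -AS2, -AS3 or -IT1, the suffixes for antisense and intronic transcripts. The rule used names alone and no measured value. It found 1587 events over 1013 exons in 357 genes, out of 123924 events in 13437 genes, and 685 of the events stood in the tables of both cell lines. By name, 110 genes were LINC, 245 antisense and 2 intronic. The MCF10A table held 1117 of these events in 292 genes, and that of HMLE TWIST held 1155 in 288 genes.

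Polyadenylated RNA was sequenced from 8 libraries in 4 groups of 2 biological replicates. MCF10A is a breast epithelial line that does not form tumours, and HMLE TWIST is an immortalised breast epithelial line that overexpresses TWIST from a retrovirally integrated pBabe-TWIST construct. Each line was grown for 24 hours with the solvent DMSO, the control, or with 10 µM emetine, an alkaloid that blocks translation by the ribosome. The study asked which compounds regulate alternative splicing through RNA G-quadruplexes, structures folded from runs of guanine, and the comparison here asks which exons respond to emetine within each line.

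Long noncoding RNAs are spliced and polyadenylated like messenger RNAs but have no annotated protein product. Their exons are therefore not held to a reading frame, and many have weak splice sites and variable isoforms. Antisense genes are transcribed from the strand opposite a protein-coding gene or divergently from its promoter, and several are known to adjust the expression of their neighbours. Cytoplasmic noncoding RNAs can still meet ribosomes on short open reading frames, and translation-dependent decay is known to act on some of them.

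The names were checked against the GENCODE 29 annotation. Of the 357 genes, 177 were of the type antisense, 96 lincRNA and 52 processed transcript. In that release 6 had been reclassified as protein-coding, under newer names in each case: LINC00094 (BRD3OS), LINC00959 (C10orf143), LINC01125 (C2orf92), LINC01420 (NBDY), MMP24-AS1 (MMP24OS) and TOPORS-AS1 (SMIM27). A further 5 genes had no entry. Among the genes below, LINC01578 is now called CHASERR, a regulator of the chromatin remodeller gene CHD2, LINC00152 is CYTOR, LRRC75A-AS1 is the small nucleolar RNA host gene SNHG29, and TMEM161B-AS1 is TMEM161B-DT, a divergent transcript.

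In 6 of these genes an exon changed in both lines, and the sequence of that exon is shown for 4 of them, since these exons carry the response common to the lines. The exons were found in GENCODE 29 by gene identifier, exon length and the lengths of both introns, and were read from GRCh38. Capitals mark every run of 3 or more guanines (GGG on the strand of the transcript), the element from which G-quadruplexes are built. The run CCC, which is GGG on the other strand, was counted as well in the shares given after the sequences.
LINC01128 (chr1:847654-847806, + strand, 153 nt, inclusion higher under emetine): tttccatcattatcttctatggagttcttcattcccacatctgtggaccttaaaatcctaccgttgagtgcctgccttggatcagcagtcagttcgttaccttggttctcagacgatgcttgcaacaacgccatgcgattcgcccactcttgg
LINC01578 (chr15:92883585-92883778, + strand, 194 nt, inclusion higher): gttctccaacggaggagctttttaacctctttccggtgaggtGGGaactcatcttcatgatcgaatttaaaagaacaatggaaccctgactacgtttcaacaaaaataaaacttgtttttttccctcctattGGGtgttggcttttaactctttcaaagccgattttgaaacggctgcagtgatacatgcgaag
TMEM161B-AS1 (chr5:88285741-88285851, + strand, 111 nt, inclusion higher): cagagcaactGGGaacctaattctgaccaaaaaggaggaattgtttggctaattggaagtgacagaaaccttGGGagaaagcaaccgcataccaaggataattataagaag
TPT1-AS1 (chr13:45390758-45390902, + strand, 145 nt, inclusion lower): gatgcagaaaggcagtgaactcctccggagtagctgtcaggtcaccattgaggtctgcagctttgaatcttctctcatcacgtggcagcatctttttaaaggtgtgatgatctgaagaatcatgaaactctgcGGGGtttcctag

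The exon of LINC01128 held no run of guanines, that of TPT1-AS1 held 1, and those of LINC01578 and TMEM161B-AS1 held 2. Such a run is common at these lengths. Among all tested exons within 10 nt of the same length it was present in 80.4% for LINC01128, 89.3% for LINC01578, 68.8% for TMEM161B-AS1 and 79.7% for TPT1-AS1. A match of these letters is a description of the sequence. Over all tested exons of the noncoding set that could be matched, 67.2% of 125 in MCF10A and 67.4% of 132 in HMLE TWIST held a run, against 66.4% and 68.3% of all matched tested exons. CCC was present in 75.2% and 73.5% of the noncoding exons and 66.7% and 68.7% of all. In MCF10A a run was present in 10 of 16 matched exons that rose and 3 of 5 that fell, and in HMLE TWIST in 15 of 18 and 10 of 12.

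Each library had 78412292 to 91259363 junction reads over its listed events, some of them counted for more than 1 event. The noncoding set took 0.243% and 0.243% of them in the MCF10A controls, against 0.255% and 0.254% with emetine. In HMLE TWIST its share was 0.132% and 0.141% in the controls, against 0.203% and 0.191% with emetine, so control and emetine libraries did not overlap in either line. Single deep genes weigh on these shares. In MCF10A the deepest event of LRRC75A-AS1 alone had 21512 and 22942 control reads, against 15095 and 14927 with emetine. With only the deepest event of each gene tested for depth, the set had 1915 and 1891 reads per 1000000 in the MCF10A controls, against 2593 and 2587 with emetine. In HMLE TWIST these were 1724 and 1745 against 2925 and 2630. The cells were also checked by genes with a listed event, as reads of the deepest event per 1000000 such reads. In MCF10A, 4 of the 7 epithelial markers were listed, with a summed level of 2898 and 2811 in the controls, against 1819 and 1711 with emetine. In HMLE TWIST the listed ones were CDH1 and ESRP1, both at or near 0 with sums of 0.111 and 0.112 in the controls, while VIM, a filament protein of mesenchymal cells, stood at 10550 and 10190. HMLE TWIST is labelled as epithelial in origin, and these defining epithelial markers were almost absent from its listed events. The mesenchymal sum, over 6 listed genes of 7 in MCF10A and 7 in HMLE TWIST, went from 1390 and 1465 to 355 and 375 in MCF10A, while HMLE TWIST went from 17190 and 16570 to 10890 and 9549. VIM made up most of it, and single genes went the other way: TWIST1 went from 0.727 and 0.243 to 2.78 and 5.73 in MCF10A, and ZEB2 from 15.4 and 15.4 to 28.9 and 22 in HMLE TWIST. The part of these markers in the results below was not tested.

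Noncoding events were shallow. The median listed event had 10 reads in both MCF10A controls, against 21 and 23 with emetine, and 11 in both HMLE TWIST controls, against 34 and 30 with emetine. Over all events the medians were 229 and 234 in the MCF10A controls, 294 and 274 under emetine, 219 and 202 in the HMLE TWIST controls, against 308 and 278 with emetine. An event was tested when every library of the line had at least 20 reads and the rarer form at least 10 reads in all. In MCF10A 174 noncoding events in 72 genes passed, 15.6% of those listed, against 31.0% of all events. HMLE TWIST gave 182 events in 71 genes, 15.8% against 30.8%. A large share reached 20 reads in every library of 1 group alone. That group was emetine for 235 events in MCF10A (21.0%, against 5.24% of all events) and 333 in HMLE TWIST (28.8% against 6.81%). It was the control for 30 (2.69% against 2.55%) and 47 (4.07% against 1.51%). Inclusion could therefore be compared in a minority of the noncoding exons, and those are the deeper ones.

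The inclusion level of an exon is the share of transcripts that contain it, estimated from junction reads corrected for the length each form offers. In the untreated cells the tested noncoding exons were used less uniformly than others. Their median level was 0.660 and 0.637 in the MCF10A controls and 0.630 and 0.654 in the HMLE TWIST controls, against 0.947 and 0.943, and 0.963 and 0.960, for all tested events. Control inclusion lay between 0.1 and 0.9 in 63.8% of the noncoding events of MCF10A and 57.1% of those of HMLE TWIST, against 22.7% and 21.4% of all. Their replicates also spread more. The median SD of the controls was 0.0300 and 0.0329, compared with 0.00692 and 0.00665 for all events, and the median absolute change under emetine was 0.0565 and 0.0614, compared with 0.0239 and 0.0256. Under emetine the median level of the noncoding set was 0.739 and 0.674 for MCF10A, and that of HMLE TWIST was 0.697 and 0.672, so every emetine library stood above both controls of its line. Over all tested events the median was lower than in the controls, at 0.926 and 0.928 in MCF10A and 0.939 and 0.937 in HMLE TWIST. Taken event by event, the median change of the noncoding events was small, 0.0256 in MCF10A and 0.00727 in HMLE TWIST. Over all events it was -0.000168 and -0.00315.

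In MCF10A, 27 of the 174 noncoding events changed under emetine, in 14 of 72 genes. That is 19.4% of the genes with a tested event, against 29.5% of all such genes. Inclusion rose in 22 events (12.6%) and fell in 5 (2.87%). An event is called changed when the quasi-binomial model gave an adjusted p under 0.05 over all tested events and the mean inclusion level moved by at least 0.1. By the same rule 13.8% of all tested events changed, 8.37% upward and 5.48% downward. The noncoding share of 15.5% of events was thus near the background, while the share of genes was below it. LINC genes gave 13 rises and 3 falls among 69 events, antisense genes 9 rises and 2 falls among 103, and the 2 intronic events did not pass. Control and emetine libraries did not overlap in 26 of the 27 events (96.3%), where 99.3% of all changed events did not. Limma on the log2 odds of inclusion called 18 noncoding events, beside 7.88% of all events.

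The largest changes in MCF10A came from TMEM161B-AS1. Its 65 nt exon on chromosome 5 (87577859 to 87577923, in the GRCh37 coordinates of the deposited tables) had inclusion levels of 0.322 and 0.336 in the controls, against 0.798 and 0.823 with emetine, with 143 to 322 reads per library. The rise of 0.482 had an adjusted p of 2.67e-20 in the quasi-binomial model and 0.0164 with limma. Exons of 110 and 152 nt that share the end at 87578683 rose as well. The longer went from 0.706 and 0.759 to 0.995 and 0.966, and the shorter from 0.238 and 0.394 to 0.960 and 0.785. These exons lie next to each other in a single gene and share junctions, so they are not separate observations.

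LINC00511, a noncoding gene on chromosome 17, had rises at a 97 nt exon (70427269 to 70427365) and a 265 nt exon (70416841 to 70417105). The first went from 0.299 and 0.258 to 0.632 and 0.614 (adjusted p 2.71e-10) and the second from 0.0514 and 0.0531 to 0.274 and 0.249 (adjusted p 8.18e-10). In both, emetine libraries stood above controls by far more than the replicates differed. LINC00963 on chromosome 9 rose at 4 events that were already mostly included, of which the 743 nt exon went from 0.757 and 0.731 to 0.925 and 0.948 (adjusted p 0.00828). That call was lost without either control library or the second emetine library, at changes of 0.180 to 0.205. Between other neighbouring exons the same 743 nt exon was less included and was not called. Its mean there went from 0.417 to 0.431 in MCF10A (quasi-binomial adjusted p 0.828) and from 0.353 to 0.269 in HMLE TWIST. NUTM2B-AS1 rose at a 201 nt exon on chromosome 10, from 0.667 and 0.447 to 1 and 0.978, on 25 and 34 control reads (adjusted p 2.58e-05). Between other neighbouring exons the same exon did not rise. Its mean there went from 0.640 to 0.576 in MCF10A (quasi-binomial adjusted p 0.887) and from 0.508 to 0.342 in HMLE TWIST, neither called.

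Smaller rises in MCF10A were seen in 3 more genes. The 222 nt exon of LINC01184 (now SLC12A2-DT, chromosome 5) went from 0.630 and 0.358 to 0.734 and 0.630 (adjusted p 0.0496). Its groups met at 0.630, and without the second control library the change was 0.0523 and not called. WAC-AS1 went from 0.899 and 0.782 to 0.941 and 1 at a 61 nt exon (adjusted p 0.0439), a call lost without the second emetine library at 0.101. MAPKAPK5-AS1, with over 400 reads in every library, went from 0.806 and 0.797 to 0.924 and 0.890 at a 145 nt exon (adjusted p 0.00241), and the change was 0.0886 without the first emetine library and 0.0615 without length correction. None of these 3 was called by limma.

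Falls in MCF10A occurred in LINC01089, TPT1-AS1 and LINC00313. LINC01089 on chromosome 12 fell at exons of 154 and 176 nt that share the start at 122240537. The longer had levels of 0.857 and 0.742 in the controls, against 0.445 and 0.491 with emetine (adjusted p 0.010), and the shorter 0.9 and 0.792 against 0.530 and 0.544. Without either control library the longer exon was no longer called, with the change between -0.389 and -0.274. LINC00313 on chromosome 21 fell from 0.829 and 0.849 to 0.737 and 0.620 at a 212 nt exon (adjusted p 0.000570). Limma did not call it, nor did the fit without the second emetine library, where the change was -0.102.

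**Figure D1:**
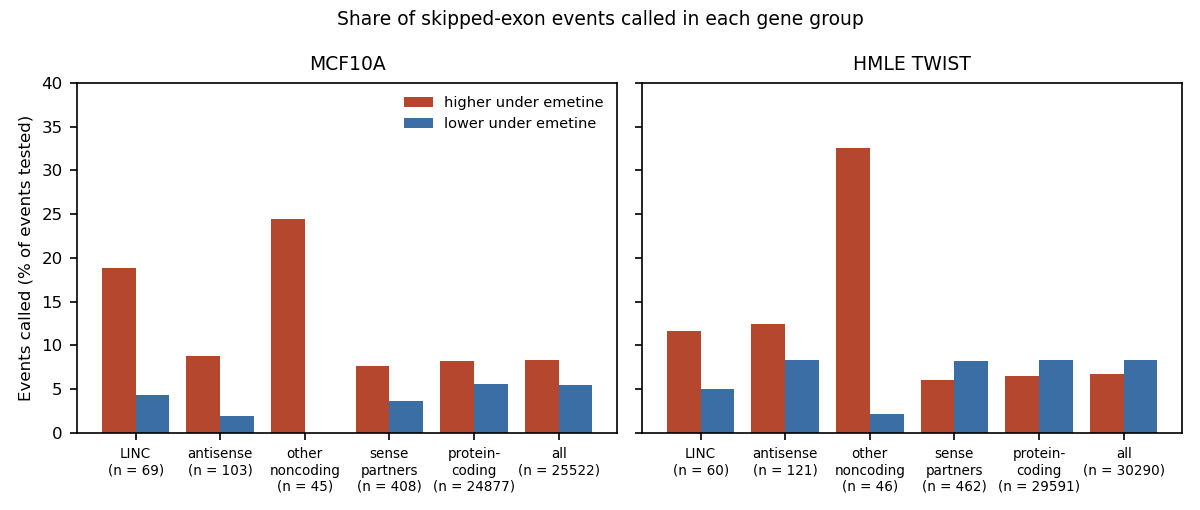
Bars give the percent of tested events called higher or lower under emetine for each gene group, with the number of events tested under each group and the 2 lines in separate panels. LINC and antisense events rose in 18.8% and 8.74% in MCF10A, against 8.37% of all events, and in 11.7% and 12.4% in HMLE TWIST, against 6.66% of all. Counted by gene the shares differ less from all genes. A changed event was found in 8 of 25 LINC genes (32.0%) and 13.0% of antisense genes in MCF10A, against 29.5% of all genes. In HMLE TWIST it was found in 23.8% of LINC and 38.8% of antisense genes, against 34.4% of all.

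In HMLE TWIST, 35 of 182 noncoding events changed, 22 upward (12.1%) and 13 downward (7.14%), in 24 of 71 genes. That is 33.8% of the genes with a tested event, near the 34.4% of all such genes. Of all tested events 15% changed, 6.66% upward and 8.32% downward. Here the antisense genes gave most calls, with 15 rises and 10 falls among 121 events in 49 genes, and LINC genes gave 7 rises and 3 falls among 60 events. The single intronic event tested did not pass. Control and emetine libraries did not overlap in any of the 35, as in 99.5% of all changed events of this line. Limma called 21 noncoding events, beside 9.94% of all events. With a minimum of 50 reads 15 were called, and without the first control, the second control and the first emetine library 22, 21 and 23.

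The largest rise in HMLE TWIST was that of SVIL-AS1, at a 247 nt exon on chromosome 10 (29747203 to 29747449). Its inclusion was 0.310 and 0.324 in the controls, against 1 and 0.889 with emetine, from 34 to 49 reads per library, a rise of 0.627 (adjusted p 1.25e-06, limma 0.0235). LINC01128 on chromosome 1 rose at a 174 nt exon (776580 to 776753) from 0.203 and 0.150 to 0.640 and 0.774 (adjusted p 1.73e-08). UBA6-AS1, now UBA6-DT, rose at a 630 nt exon on chromosome 4 from 0.387 and 0.443 to 0.928 and 0.947, while its reads went from 52 and 44 to 321 and 256 (adjusted p 7.85e-12). In MCF10A the same event moved by 0.0996, just under the minimum of 0.1. The difference between the lines was not called (adjusted p 0.786).

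SRP54-AS1, antisense to a subunit of the signal recognition particle, rose at a 272 nt exon on chromosome 14 from 0.244 and 0.111 to 0.556 and 0.643 (adjusted p 0.00312). ZNF561-AS1 rose at a 91 nt exon on chromosome 19 from 0.0550 and 0.177 to 0.5 and 0.462, and its reads from 30 and 24 to 381 and 359 (adjusted p 1.71e-05). PCBP1-AS1, antisense to a gene for a poly(C)-binding protein, rose at a 181 nt exon on chromosome 2 from 0.6 and 0.667 to 0.923 and 0.867 (adjusted p 0.00784). CD27-AS1 rose at a 640 nt exon on chromosome 12 from 0.431 and 0.368 to 0.693 and 0.561 (adjusted p 0.00521), but limma did not call it. In all 4 the emetine libraries lay above both controls. The calls of SRP54-AS1 (0.355 without the second control library), ZNF561-AS1 (0.304 without the first control), PCBP1-AS1 (0.228 and 0.295 without the first and second control) and CD27-AS1 (0.197 without the second control, 0.162 without the first emetine library) were lost with fewer libraries.

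Falls in HMLE TWIST were led by TPT1-AS1, described with the exons common to both lines. ENTPD1-AS1 fell at a 122 nt exon on chromosome 10 (97657315 to 97657436) from 0.279 and 0.371 to 0.0959 and 0.0196 (adjusted p 0.000828). LRRC75A-AS1 fell at a 353 nt exon on chromosome 17 from 0.464 and 0.356 to 0.158 and 0.123 (adjusted p 0.0111), and OSER1-AS1 at a 116 nt exon on chromosome 20 from 0.612 and 0.684 to 0.411 and 0.371 (adjusted p 0.0228). ZNF213-AS1 on chromosome 16 had exons moving in opposite directions. Its 175 nt exon fell from 0.931 and 1 to 0.667 and 0.762 (adjusted p 0.0342), and its 96 nt exon rose from 0.174 and 0.216 to 0.362 and 0.366 (adjusted p 0.0455). The call of LRRC75A-AS1 was lost without the first control (-0.216) or the second emetine library (-0.252), that of the 175 nt exon of ZNF213-AS1 without either control (-0.286 and -0.217), and that of OSER1-AS1 without any of the 4 libraries (-0.293 to -0.221). The other 9 genes with a call had changes between -0.222 and 0.183.

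Both tables allowed a test for 105 noncoding events. The response reached the call for 16 of them in MCF10A, for 24 in HMLE TWIST and for 9 in each line, the 9 lying in 6 genes. All 9 moved in the same direction, 7 upward and 2 downward. Of all events tested in both lines, 9.25% changed in the same direction in each. Of the 31 events called in either line, 24 had the same sign in both.

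**Figure D2:**
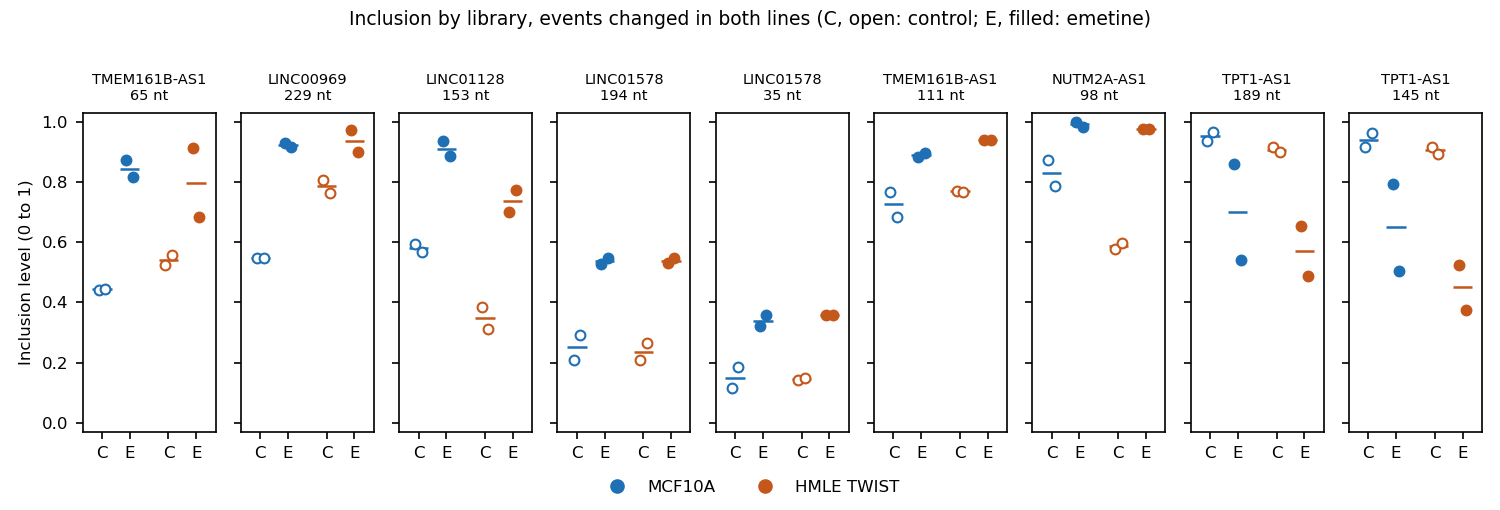
Inclusion level, from 0 to 1, of the 9 events changed in both lines, with a point for each library and a bar at each group mean. Open points are controls and filled points emetine libraries. The 2 events of LINC01578 nearly coincide between the lines, and those of TPT1-AS1 are the ones that fell.

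The LINC01578 exon of 194 nt (93426815 to 93427008 on chromosome 15) had nearly equal levels in the 2 lines. Its level was 0.210 and 0.293 in the MCF10A controls, against 0.526 and 0.547 with emetine, and 0.210 and 0.263 in the HMLE TWIST controls, against 0.530 and 0.546 with emetine. The rises of 0.285 and 0.301 (adjusted p 6.01e-14 and 2.70e-19) differed by 0.0161, which was not called. Reads of the event went from 167 and 192 to 2700 and 2620 in MCF10A, while HMLE TWIST went from 242 and 247 to 1522 and 1012. A 35 nt form that shares its end rose with it, by 0.188 and 0.211. With limma the adjusted p of the longer form was 0.0531 in MCF10A and 0.0369 in HMLE TWIST.

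LINC01128 rose at the 153 nt exon printed above (783034 to 783186) from 0.593 and 0.567 to 0.934 and 0.887 in MCF10A, while HMLE TWIST went from 0.384 and 0.312 to 0.700 and 0.774. The call in MCF10A was lost without the first emetine library, at a change of 0.307. NUTM2A-AS1 rose at its 98 nt exon from 0.874 and 0.787 to 1 and 0.984 in MCF10A, while HMLE TWIST went from 0.576 and 0.598 to 0.976 and 0.975. The 229 nt exon of LINC00969, now MUC20-OT1, rose from 0.548 and 0.547 to 0.930 and 0.915 in MCF10A (adjusted p 2.38e-06), and from 0.807 and 0.765 to 0.973 and 0.899 in HMLE TWIST. The latter had an adjusted p of 0.0494, 0.0878 with limma, and was lost without either control library or the first emetine library (0.113 to 0.171). At the events of these 3 genes called in both lines, the mean levels of the lines lay closer together with emetine than in the controls. None of these events had a called difference of response (adjusted p 0.898, 0.996 and 0.65).

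TMEM161B-AS1 rose in both lines at its 65 nt exon, between different neighbouring exons than in the event given above for MCF10A, by 0.401 and 0.256. In HMLE TWIST the levels were 0.525 and 0.559 in the controls, against 0.912 and 0.683 with emetine on 31 to 72 reads. That call was lost without either control or the first emetine library (0.141 to 0.273) and with limma (adjusted p 0.146). Its 111 nt exon went from 0.767 and 0.684 to 0.882 and 0.897 in MCF10A, while HMLE TWIST went from 0.771 and 0.768 to 0.939 and 0.938. The MCF10A call was lost without either control or the second emetine library (0.122 to 0.205), and that in HMLE TWIST without the first control (0.171). In HMLE TWIST another exon of the gene, of 77 nt, fell from 0.417 and 0.404 to 0.236 and 0.102 (adjusted p 0.0175).

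TPT1-AS1, antisense to the gene for translationally controlled tumour protein, was the gene whose exons fell in both lines. The 145 nt exon (45964893 to 45965037 on chromosome 13) was included at 0.917 and 0.963 in the MCF10A controls, against 0.793 and 0.505 under emetine. In HMLE TWIST it went from 0.918 and 0.893 to 0.525 and 0.374, a fall of 0.456 (adjusted p 1.79e-08, limma 0.0160). The emetine replicates differed widely in MCF10A, and limma did not call that fall (adjusted p 0.0691). The 189 nt form that shares its end fell by 0.251 and 0.337.

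Near-identical sequence elsewhere can move reads between genes. Of 41 changed noncoding exons that could be matched and searched, 11 exons in 9 genes had a stretch of at least 95% identity over 90% of their length in another gene. The TPT1-AS1 exons match RCN1 and its pseudogene RCN1P2, those of LINC01089 match AC084018.2 and the shorter also RHOF, the 98 nt exon of NUTM2A-AS1 matches NUTM2B-AS1, and the 74 nt exon of NUTM2B-AS1 matches NUTM2A-AS1. The 630 nt exon of UBA6-AS1, the 91 nt exon of ZNF561-AS1, the 153 nt exon of LINC01128, the 209 nt exon of LINC00969 and the 92 nt exon of NR2F2-AS1 also had copies. The values of these exons are uncertain to that extent.

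**Figure D3:**
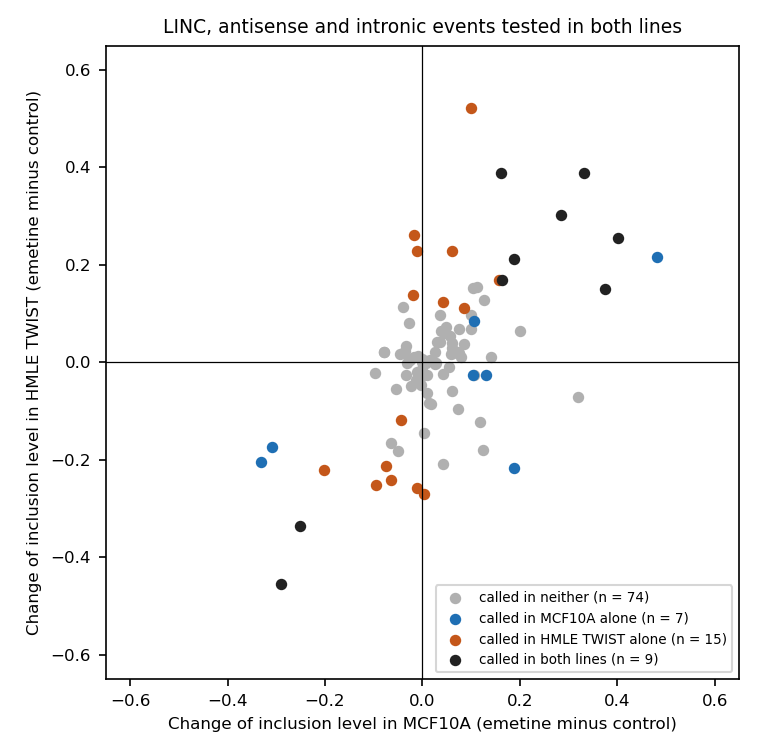
Change of the inclusion level (emetine minus control) in MCF10A on the horizontal axis and in HMLE TWIST on the vertical axis, for the 105 noncoding events tested in both lines, coloured by where they were called. The 9 events called in both lie in the upper right and lower left quadrants.

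The line by treatment term was called for 1 of the 105 events, beside 3.05% of all events tested. This was a 219 nt exon of LINC01184 (127417665 to 127417883). In MCF10A its level went from 0.231 and 0.195 to 0.288 and 0.283, and in HMLE TWIST from 0.254 and 0.271 to 0.178 and 0.156. The changes of 0.0725 and -0.0957 differed by -0.168 (adjusted p 0.000697), on 227 to 591 reads per library. Control and emetine libraries did not overlap in either line, which adds no support, since the event was picked by its call. Of all tested noncoding events 58.05% in MCF10A and 57.1% in HMLE TWIST did not overlap. Within each line the change was under 0.1 and so not called (adjusted p 0.0149 and 0.00245, limma 0.354 and 0.199). Limma gave an adjusted p of 0.283 for the difference and called 0 events of all 19025, with 12 of the noncoding ones at an unadjusted p under 0.05. A further exon of the same gene, of 147 nt, rose in HMLE TWIST from 0.0651 and 0.0857 to 0.203 and 0.196 (adjusted p 0.00142).

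Without a reading frame, the length of an exon need not be a multiple of 3. Of the tested noncoding exons 34.5% of 142 in MCF10A and 31.9% of 144 in HMLE TWIST were multiples of 3, against 39.3% and 38.5% of the tested exons of protein-coding genes. Among the changed noncoding exons the counts were 8 of 26 and 10 of 34, and among the changed exons of protein-coding genes 36.8% and 35.6%. The changed noncoding exons had a median length of 153.5 nt in MCF10A and 148.5 nt in HMLE TWIST, compared with 122 and 121.5 nt for the tested ones. Their shorter flanking intron had a median of 1575 and 1859 nt, close to the 1586 and 1866 nt of those tested, while for all tested events it was 1265 and 1116 nt.

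The share of events called depends on depth and on the control level, so both were read together, by limits chosen after seeing the data. Among events whose shallowest library had 20 to 99 reads, 14.4% of 118 noncoding events changed in MCF10A and 21.8% of 133 in HMLE TWIST, against 23.3% and 24.95% of all events. Among events with 100 or more reads the shares were 17.9% of 56 and 12.2% of 49, against 10.9% and 11.9%. When control inclusion lay between 0.1 and 0.9, 19.8% of 111 and 25.0% of 104 noncoding events changed, against 32.4% and 36.1% of all. At that range of inclusion 20 to 99 reads gave 15.3% of 85 and 24.4% of 86, against 27.1% and 31.2%. Compared with exons of like use, the noncoding ones were called in a smaller share in both lines, and these shares carry no test.

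Depth was compared for each gene at its deepest event, as reads scaled by the median gene of the library and tested with limma. A gene was called at an adjusted p under 0.05 and a fold of at least 1.5. Reads of a single event are no full measure of expression, and in bulk RNA fewer cells with a transcript and less of it per cell cannot be told apart. In MCF10A 142 noncoding genes were tested, of which 74 rose and 19 fell, beside 29.1% of all genes that rose and 27.7% that fell. In HMLE TWIST 81 rose and 21 fell of 163, beside 27.7% and 26.3%. The filter was a mean of 20 reads over 4 libraries, and 35 noncoding genes in MCF10A and 51 in HMLE TWIST met it through emetine alone, against 7 and 8 through the control alone, so those had to differ. Among the genes with a mean of 20 reads in each group, 44 of 100 rose and 13 fell in MCF10A, where 27.6% and 27.1% of all such genes did. For HMLE TWIST these were 37 and 16 of 104, where 24.8% and 27.2% of all did.

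The median log2 change over the genes with 20 reads in each group was 0.602 in MCF10A and 0.275 in HMLE TWIST, against -0.0161 and -0.0589 for all genes. LINC genes rose in 16 of 29 and fell in 3 in MCF10A, and rose in 12 and fell in 3 of 29 in HMLE TWIST. Antisense genes rose in 28 and fell in 10 of 70, and rose in 25 and fell in 13 of 74. Scaling by total reads shifts the median of all genes by 0.23 and 0.39 on the log2 scale. With it, 55 of the 100 genes in MCF10A rose and 8 fell, against 34.7% and 20.4% of all such genes, and 47 of the 104 in HMLE TWIST rose and 7 fell, against 36.5% and 14.9%. Over the 142 and 163 genes, falls were 20.4% and 20.6% of the called genes with the median scaling and 13.1% and 10.6% with total reads.

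**Figure D4:**
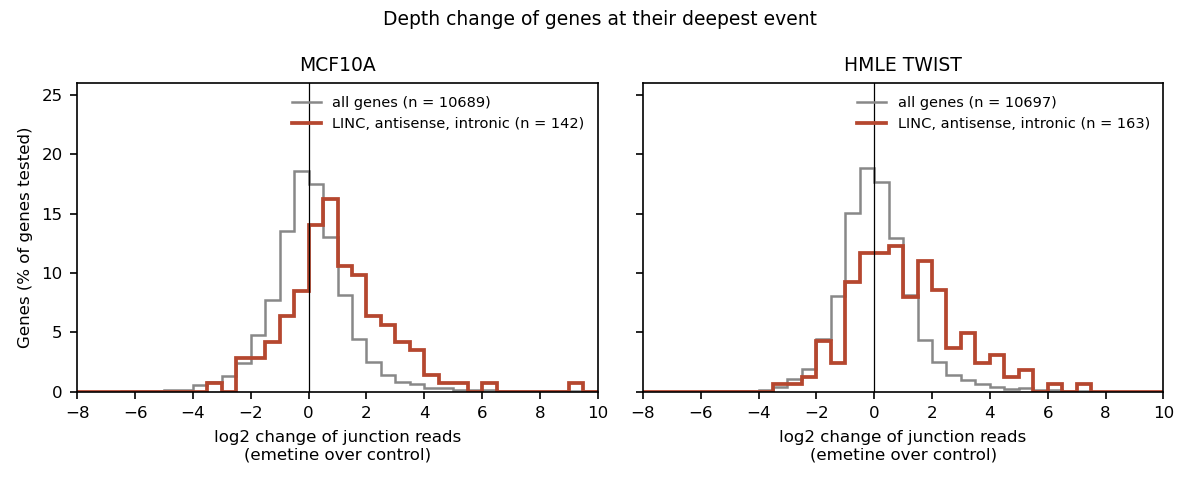
Distribution of the log2 change of junction reads at the deepest event of each gene, emetine over control, as percent of genes per bin, for noncoding genes and for all genes tested. The noncoding curve lies to the right of that of all genes, with medians of 0.84 in MCF10A and 0.86 in HMLE TWIST over all tested noncoding genes. These include 35 and 51 genes that met the read filter through emetine alone. With a mean of 20 reads in each group the noncoding medians were 0.602 and 0.275.

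The largest rises in MCF10A were mostly in antisense genes with few or no control reads. Apart from NOP14-AS1 these genes had under 20 control reads on average, so they entered the test through their emetine libraries and had to differ. C1QTNF1-AS1 had 0 and 4 reads in the MCF10A controls, against 1100 and 1126 with emetine, a ratio of scaled reads of 509 (exact 95% interval 198.3 to 1868, counting error only). NOP14-AS1, antisense to a ribosome assembly factor gene, had 22 and 31 control reads and 1034 and 970 under emetine, a log2 change of 5.11 ± 0.22 (SE, limma adjusted p 6.24e-08). MZF1-AS1 had 0 and 1 reads in the MCF10A controls, against 69 and 49 with emetine, a ratio of 107.8 (18.98 to 4295). In HMLE TWIST it had 2 and 3 against 161 and 99, a log2 change of 5.12 ± 0.57 (adjusted p 6.20e-10). CFLAR-AS1, antisense to an inhibitor of caspase 8 activation, had 2 and 5 reads in the MCF10A controls, against 115 and 73 with emetine, and TMEM44-AS1 had 14 and 11 against 226 and 253. LINC01094 completed the 6 largest rises in MCF10A with 4 and 1 against 69 and 47 (log2 change 4.35 ± 0.68, adjusted p 0.000248).

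In HMLE TWIST the largest rises besides MZF1-AS1 were mostly in LINC genes. LINC01111 had 1 and 0 control reads and 231 and 83 under emetine, a ratio of 249.5 (44.5 to 9887), and LINC00337 (now ICMT-DT) had 1 and 0 against 49 and 40, a ratio of 70.7 (12.4 to 2825). LINC00174 had 5 and 0 against 167 and 175, and LINC01547 had 11 and 1 against 155 and 161 (log2 change 4.96 ± 0.60, adjusted p 4.64e-09). All these genes of HMLE TWIST had under 20 control reads on average, so they too entered the test through their emetine libraries.

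Genes that fell needed control reads to meet the filter, so their better coverage in the controls is no result. ENTPD1-AS1, LINC01481, MAP3K14-AS1 and NRSN2-AS1 in MCF10A had under 20 emetine reads on average. The same held for ITGA9-AS1, OR2A1-AS1 and LINC00704 in HMLE TWIST. These genes entered the test through their control libraries and had to differ. In MCF10A ENTPD1-AS1 went from 78 and 89 reads to 12 and 8, a log2 change of -3.15 ± 0.41 (adjusted p 6.82e-05), and VPS9D1-AS1 from 235 and 229 to 73 and 68, -1.84 ± 0.22 (adjusted p 3.86e-05). LINC01481 (now PRANCR) went from 66 and 47 to 22 and 7, MAP3K14-AS1 from 62 and 71 to 19 and 13, NRSN2-AS1 from 80 and 62 to 15 and 20, and EIF3J-AS1 from 80 and 110 to 23 and 24, all with adjusted p of 0.00411 or less. In HMLE TWIST LINC01224 fell from 400 and 420 reads to 38 and 87 (log2 change -3.15 ± 0.33, adjusted p 1.57e-10). LOXL1-AS1, antisense to the gene of a lysyl oxidase-like enzyme, fell from 386 and 443 to 66 and 94 (-2.71 ± 0.30, adjusted p 4.33e-10). ITGA9-AS1 went from 36 and 27 to 6 and 11, OR2A1-AS1 from 65 and 42 to 15 and 16, LINC00704 (now MANCR) from 49 and 43 to 22 and 9, and VPS9D1-AS1 from 173 and 119 to 43 and 83. Controls and emetine libraries did not overlap for any of these falls, which adds no support, since they were picked as the largest called ones.

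**Figure D5:**
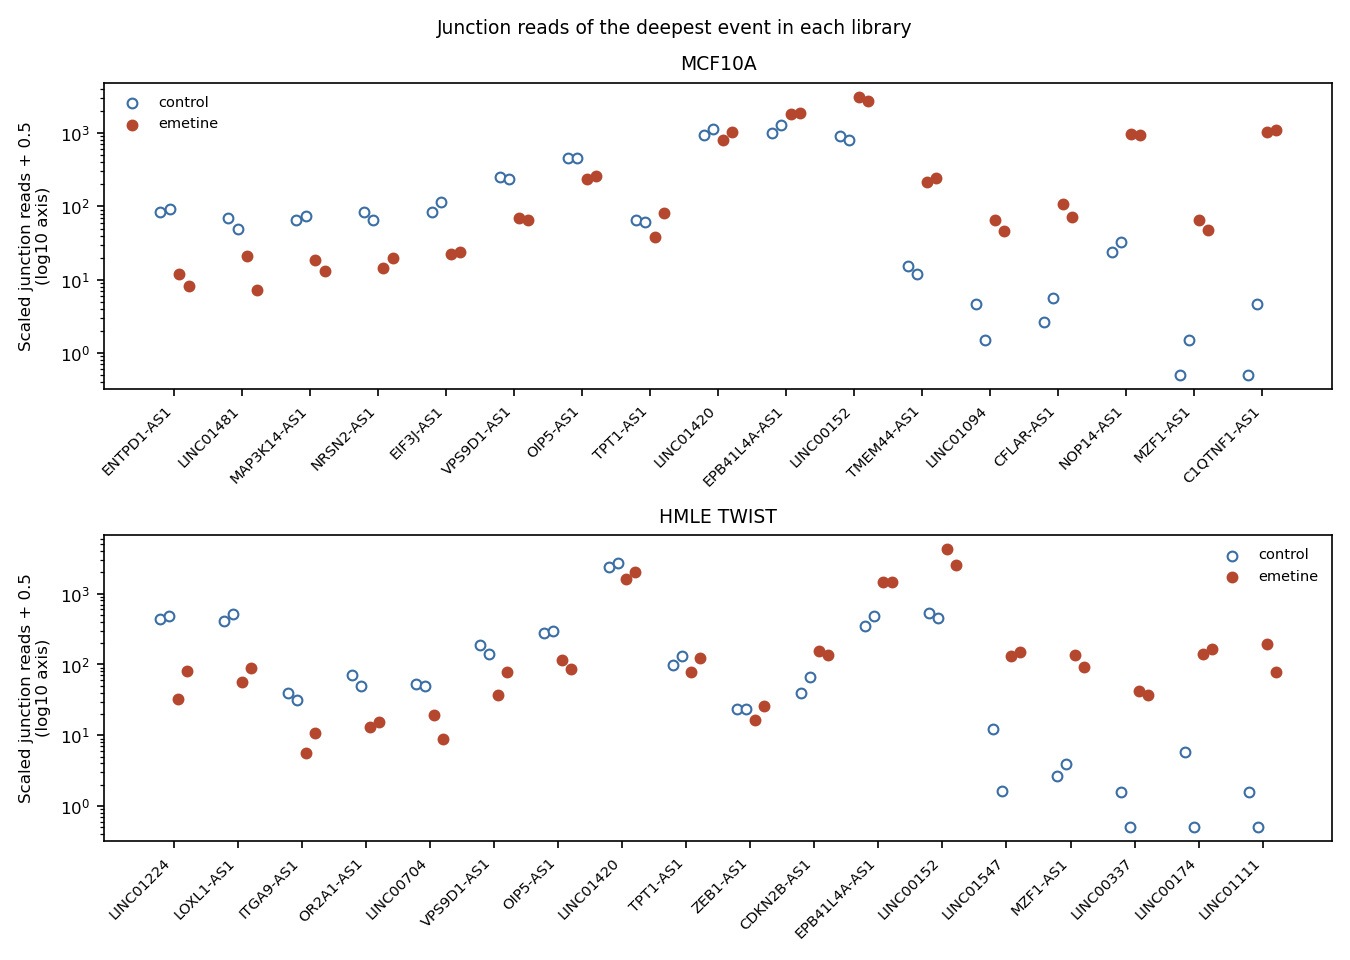
Scaled junction reads of the deepest event, plus 0.5, on a log10 axis, for the genes described by their depth in each line, ordered by their change. Each gene has 2 control points and 2 emetine points. The 6 genes at the right for MCF10A and the 5 at the right for HMLE TWIST had 0 to 31 control reads. The 6 at the left of each panel were picked as the largest called falls, and their emetine libraries lie below both controls.

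Depth was tested in both lines for 106 noncoding genes, of which 44 rose in both and 4 fell in both (ENTPD1-AS1, LINC01481, VPS9D1-AS1 and OIP5-AS1). That is 41.5% and 3.77%, where 16.8% and 16.4% of all genes tested in both lines did. Some of the noncoding genes passed the filter on low reads through their emetine libraries alone. With a mean of 20 reads in each group of each line, a limit added after seeing the data, 69 noncoding genes were left. Of these 21 (30.4%) rose in both lines and 2 (2.90%) fell in both, where 15.5% and 16.4% of all such genes did. The deepest event of a gene can differ between the tables, and it was the same for 75 of the 106. Over those, 26 rose in both and 4 fell in both, 34.7% and 5.33%, against 16.9% and 16.2% of all genes with the same event. NCK1-AS1 and THUMPD3-AS1 were called in opposite directions, but at different events in the 2 lines, and no gene was called in opposite directions at the same event.

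Well-known noncoding genes were named whatever their values. LINC00152 (CYTOR), which is highly expressed in many tumours, rose in depth from 861 and 769 reads to 3293 and 2862 in MCF10A, while HMLE TWIST went from 488 and 389 to 4980 and 2743 (log2 changes 1.79 ± 0.12 and 2.75 ± 0.24). None of its 5 and 6 tested events was called. The largest difference, at 109 nt, was from 0.0621 and 0.0957 to 0.141 and 0.169 in MCF10A, or 0.0759 (adjusted p 0.0513). EPB41L4A-AS1, a host of small nucleolar RNA, rose from 953 and 1267 to 1918 and 1942 reads and from 328 and 421 to 1700 and 1569 (log2 changes 0.68 ± 0.14 and 1.8 ± 0.24), and the rise in MCF10A was not called without the first control library, at 0.48. OIP5-AS1, the human counterpart of the Cyrano RNA, fell from 430 and 436 to 247 and 267 and from 261 and 252 to 133 and 93, while its tested exon had an inclusion level of at most 0.0244 in every library. CDKN2B-AS1, also called ANRIL, rose in HMLE TWIST from 36 and 57 to 183 and 148 reads and was not tested in MCF10A.

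For the remaining names no change of depth was called. TPT1-AS1 had 62 and 59 control reads and 40 and 84 under emetine in MCF10A and 91 and 112 against 91 and 133 in HMLE TWIST, so its fall of inclusion came with no called change of reads. ZEB1-AS1, tested in HMLE TWIST alone, had 21 and 20 against 19 and 27. LINC01420 encodes the microprotein NBDY, which binds the mRNA decapping complex, and is thus a coding member of the set. It had 879 and 1101 control reads against 847 and 1063 in MCF10A and 2183 and 2318 against 1906 and 2201 in HMLE TWIST, with its exon included above 0.97 in every library. GABPB1-AS1, FGD5-AS1, MCM3AP-AS1, LINC00998, LINC00116 and LINC00493 were tested for neither depth nor inclusion in either line.

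Genes with changed exons were not always those with changed depth. Of the 14 genes with a changed event in MCF10A, 8 rose in depth and 2 fell, and of the 58 tested genes without a changed event 24 rose and 8 fell. In HMLE TWIST 8 of 24 rose and 4 fell, against 18 and 7 of 47. ENTPD1-AS1 is a gene with both, as its depth fell in both lines and its 122 nt exon fell in HMLE TWIST.

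The protein-coding genes that give the antisense genes their names were compared by symbol. In MCF10A 67 pairs had depth in both genes. Where the antisense gene rose, in 34 pairs, the partner rose in 11, fell in 8 and was not called in 15. Of all genes tested in MCF10A, 29.1% rose and 27.7% fell. In those pairs the median log2 change was 0.14 for partners and 2.24 for antisense genes. The latter is high by selection, since these antisense genes were picked as called rises. Over all 67 pairs the medians were 0.147 for partners and 0.929 for antisense genes. In HMLE TWIST the partner of 36 antisense genes that rose itself rose in 10, fell in 9 and was not called in 17. Of all genes tested in that line, 27.7% rose and 26.3% fell. The medians for partners and antisense genes were 0.022 and 2.32 in these pairs, picked in the same way. Over all 71 pairs they were 0.0277 and 0.925. Exons of partner genes changed in 46 of 408 events (11.3%) in MCF10A and 66 of 462 (14.3%) in HMLE TWIST. Of all tested events, 13.84% changed in MCF10A and 14.99% in HMLE TWIST, so the partner shares were not above the background. Whether the counting used the strand of the reads is not given in the sources used here. The counts are of reads that span the junctions of an event. How far an antisense gene and an overlapping partner share such reads was not tested.

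Noncoding genes outside the naming rule, a list of 24 such as NEAT1, MALAT1, PVT1 and LINC-PINT, were taken alongside. In MCF10A 11 of their 45 tested events rose (24.4%, against 8.37% of all) and none fell, in 6 of 10 genes. In HMLE TWIST 15 of 46 rose (32.6%, against 6.66% of all) and 1 fell, again in 6 of 10. Limma called 1 and 5 of these events, beside 7.88% and 9.94% of all. Their median inclusion went from 0.615 to 0.808 in MCF10A, while HMLE TWIST went from 0.512 to 0.668. In depth 4 of 11 rose and 1 fell in MCF10A and 5 of 13 rose and 4 fell in HMLE TWIST.

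In the authors' deposited table for MCF10A, 142 of the 1117 noncoding events had a false discovery rate under 0.05 and a difference of at least 0.1, 103 higher and 39 lower under emetine. For HMLE TWIST the authors' deposited table gave 166 of 1155, 93 higher and 73 lower. These are 12.7% and 14.4% of the noncoding events, compared with 6.93% and 7.59% of all events in the authors' deposited table. Of the noncoding ones 110 and 127 had fewer than 20 reads in a library and were not tested here. Among the 27 and 35 events called here, 26 and 35 also had a false discovery rate under 0.05 in the authors' deposited table.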

How the data were processed

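Skipped-exon events were measured by RNA-seq in 8 libraries, 2 for each of MCF10A and HMLE TWIST under DMSO or emetine. Per the labels' protocols, stranded paired-end TruSeq libraries were made from polyadenylated RNA. STAR 2.5.3a and GRCh37 are named in the submitters' processing notes. Per the file headers, the authors deposited 2 rMATS tables, in which each cell holds the 2 replicates as a pair of other values: inclusion counts, skipping counts and inclusion levels. The deposited effective lengths, p-values, false discovery rates and difference scores (control minus emetine inclusion) are also the authors' values, per the file headers. The rMATS version is not given in the sources used here. Sample 1 of each table is read as DMSO and sample 2 as emetine, following the table's name.

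Here, inclusion levels were recomputed from the counts with effective lengths of 99 for skipping and 100 to 198 for inclusion. Each tested event was fitted with a quasi-binomial model in R, with dispersions moderated by limma and floored at 1. The moderation gave 1 shared dispersion for all events, 1.97 in MCF10A, 1.95 in HMLE TWIST and 2.04 over both. With 2 libraries a group, an exact permutation test of a single event cannot go below 0.333. P-values are two-sided and Benjamini-Hochberg adjusted over all events or genes. Depth was tested with limma on log2 of scaled reads plus 0.5. Tests were tried on simulated data.

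The members and lists were chosen with earlier results of these data known. Named were the genes with a called event, up to 15 per line by size of change, events called in both lines or between lines, the 6 largest called rises and falls of depth per line, and a list of well-known genes. Replicate numbers did not pair the samples, as deviations of same-positioned libraries correlated at 0.0177 and 0.00667. Alternatives were another test, other read minimums, no length correction, other scalings and leaving out each library. The depth of 1 gene that this rule names and the sequences of 2 exons are not reported here.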

Additional observations from a re-analysis of the deposited data

Results flagged for a closer look

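The 219 nt exon of LINC01184 on chromosome 5 had changes of opposite sign in the lines, 0.0725 in MCF10A and -0.0957 in HMLE TWIST, neither of which reached the minimum of 0.1 for a call. The difference of the changes was -0.168 (adjusted p 0.000697 for the line by treatment term of the quasi-binomial model). Both emetine libraries lay above both controls in MCF10A and below both controls in HMLE TWIST, which adds no support, since the event was picked by its call. This exon was the 1 called among 105 noncoding events, beside 3.05% of all events. With limma the unadjusted p was 0.0271 and the adjusted p 0.283, and 0 of all 19025 events were called.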

How the results depend on the processing

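The count of changed noncoding events in MCF10A, 27, was 18 with limma, 25 with the dispersion of each event itself and 15 with a minimum change of 0.2, and lay between 20 and 28 without 1 library. In HMLE TWIST the count of 35 was 21 with limma, 29 with the dispersion of each event itself, 15 with a minimum of 50 reads, 23 with a minimum change of 0.2, and 21 to 35 without 1 library. The differences of response between lines numbered 0 with limma and with a minimum change of 0.2, and 1 to 3 without 1 library. Requiring a mean of 20 reads in each group, an alternative chosen after seeing the data, left 57 of 93 genes with changed depth in MCF10A and 53 of 102 in HMLE TWIST, since fewer genes enter. Of the named and called events, 8 of 18 in MCF10A and 10 of 20 in HMLE TWIST lost the call without some library, and 9 and 4 with limma. Some uncalled values changed sign, and the cause was not tested. The OIP5-AS1 exon in MCF10A moved by 0.00206 without the second emetine library. For TPT1-AS1 depth (log2) this was 0.0384 with total reads, 0.0520 with reads summed over events, 0.00597 with length-corrected reads and -0.717 to 0.376 without 1 library in MCF10A, and 0.188 with total reads and -0.420 to 0.155 without 1 library in HMLE TWIST. LINC01420 in MCF10A gave 0.0471 with total reads and -0.345 to 0.0162 without 1 library, and ZEB1-AS1 in HMLE TWIST 0.205 and -0.468 to 0.153. In HMLE TWIST the fall of LINC01420 was called without the second emetine library, at -0.610. No called event or gene among those named reversed. With a replicate block, 30 and 37 events, 1 difference between lines and 94 and 108 genes were called, but the numbers do not pair the samples. The median listed noncoding event had 10 or 11 reads in a control library, below the minimum for a test, so most listed events were not tested.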
